A study of Mus musculus with 40 samples.

Results

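The loci of 35 genes of the neuronal synapse were examined in a screen of open-chromatin fragments for enhancer activity during blood cell specification. A locus was the mm10 RefSeq gene body with 25 kb on each side, and a fragment belonged to it when its centre lay inside. The 35 genes were taken out of 39086 RefSeq gene loci. They had been listed as genes of another lineage and not by their fragment numbers, but with earlier results of these data known. RNA was not measured in these libraries, so whether a member is silent in these cells was not tested. The member loci held 1738 of the 354627 different fragments of the series, or 0.490%, and covered 0.689% of the genome. After merging of overlapping fragments they held 376 of 75060 regions.

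The cells were mouse HM-1 embryonic stem cells of the 129/ola strain, in which a non-functional Hprt locus is repaired when the reporter integrates. Every construct held the fragment, the HSP68 minimal promoter and Venus-YFP, and plasmid libraries cloned from all 5 stages had been mixed before transfection, so a fragment could be assayed at a stage at which its own site was closed. After differentiation in serum the cells were taken as undifferentiated cells (ES), FLK1+ hemangioblast-like cells (HB), KIT+ TIE2+ CD41- hemogenic endothelium (HE1), KIT+ TIE2+ CD41+ hemogenic endothelium (HE2) and KIT+ TIE2- CD41+ progenitors (HP). Each stage of each of the 2 replicates, called a sort, had been divided by YFP into Negative, Low, Medium and High gates, with the Negative gate set on cells of a line that had the minimal promoter but no fragment. Fragments of the Low, Medium or High gate are called positive and those of the Negative gate negative.

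The 40 libraries held 458486 fragments, from 4869 to 51146 in replicate 1 and from 654 to 31915 in replicate 2, and replicate 2 gave 21.2% of them. Each line was a fragment with no read count. In HE1 of replicate 1, 28868 of the 41374 fragments of the Negative gate were also in the Medium gate, and so were 145 of the 203 in member loci. The results below are therefore also given without that sort or without fragments found on both sides.

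A chemical synapse passes a signal from the axon of 1 neuron to the next cell. Synaptic vesicles fuse with the presynaptic membrane when calcium enters through voltage-gated channels, and the transmitter opens receptors that scaffold proteins hold in the postsynaptic membrane, while adhesion molecules join both sides. In cells that are not neurons many such genes are kept off by the repressor REST, which binds a sequence called RE1. Introns of synapse genes are often very long, and several adhesion genes are among the longest in the genome.

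The 6 regions shown here had positive fragments in 7 or 8 of the 10 sorts, the most of any member region beside 1 at Camk2a, and are shown because their positive fragments recurred most widely at these loci. Each line gives up to 300 bases at the centre of the region, on the plus strand of GRCm38 (the assembly mm10 names), from RefSeq. Letters of 8 motifs were searched on both strands, and their shares are given over the windows of all 5742 regions with at least 20 fragments. RE1, written CAGCACCNNGGACAG, was found in 0.279% of these windows. The CTCF motif, searched as a fixed string of letters that is not printed here, was found in 8.15%. The AP-1 letters TGANTCA were found in 17.0% of the windows. The ETS letters GGAAGT were found in 1609 of the 5742 windows, the most frequent of the 8. For GATA factors the letters AGATAA were found in 15.4%. For RUNX the letters TGTGGTT were found in 6.04%. For TEAD the letters GGAATG were found in 18.5%. An E-box, CAGCTG, was found in 25.7%. Capitals mark a match, and no pair of these motifs was matched at the same bases here. A near match to any of the 8 motifs was not counted, so a window without capitals may still hold one.
Cacna1a chr8:84639190-84639489: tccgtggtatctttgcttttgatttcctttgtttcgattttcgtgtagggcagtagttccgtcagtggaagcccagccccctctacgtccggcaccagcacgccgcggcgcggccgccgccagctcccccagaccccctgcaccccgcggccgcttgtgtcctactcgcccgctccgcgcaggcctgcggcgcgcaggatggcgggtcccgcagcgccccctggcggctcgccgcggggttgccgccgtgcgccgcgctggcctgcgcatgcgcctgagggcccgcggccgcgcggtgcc
Lsamp chr16:42190447-42190746: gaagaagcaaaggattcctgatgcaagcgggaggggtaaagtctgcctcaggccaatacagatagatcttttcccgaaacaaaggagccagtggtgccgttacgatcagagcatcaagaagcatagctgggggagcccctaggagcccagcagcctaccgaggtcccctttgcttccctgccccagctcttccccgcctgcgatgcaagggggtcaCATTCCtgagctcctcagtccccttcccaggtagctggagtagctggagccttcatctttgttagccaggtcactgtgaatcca
Dlg4 chr11:70026772-70027071: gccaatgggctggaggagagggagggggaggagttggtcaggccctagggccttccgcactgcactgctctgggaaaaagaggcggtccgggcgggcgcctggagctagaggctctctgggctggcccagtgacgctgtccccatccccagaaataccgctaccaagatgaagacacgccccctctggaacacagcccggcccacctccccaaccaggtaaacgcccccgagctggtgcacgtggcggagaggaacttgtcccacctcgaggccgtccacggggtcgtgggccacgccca
Shank2 chr7:143978680-143978979: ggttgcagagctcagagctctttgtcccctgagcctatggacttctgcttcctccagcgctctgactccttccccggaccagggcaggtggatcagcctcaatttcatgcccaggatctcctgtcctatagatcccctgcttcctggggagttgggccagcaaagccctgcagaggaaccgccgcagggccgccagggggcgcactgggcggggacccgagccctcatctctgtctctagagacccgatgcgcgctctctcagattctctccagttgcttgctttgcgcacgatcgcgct
Dlg4 chr11:70021052-70021351: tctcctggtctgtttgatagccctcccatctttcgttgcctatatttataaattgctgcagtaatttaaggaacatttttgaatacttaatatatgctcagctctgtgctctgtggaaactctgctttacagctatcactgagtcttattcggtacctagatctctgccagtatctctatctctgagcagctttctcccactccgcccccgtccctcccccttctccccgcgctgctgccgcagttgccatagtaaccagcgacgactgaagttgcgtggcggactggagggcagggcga
Nrxn2 chr19:6502175-6502474: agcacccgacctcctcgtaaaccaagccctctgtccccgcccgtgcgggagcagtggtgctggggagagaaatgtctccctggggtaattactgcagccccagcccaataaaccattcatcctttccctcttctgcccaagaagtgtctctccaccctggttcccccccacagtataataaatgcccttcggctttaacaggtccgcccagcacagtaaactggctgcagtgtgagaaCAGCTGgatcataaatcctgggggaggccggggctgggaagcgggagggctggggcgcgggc
The centre of the first lies in a coding exon near the 3′ end of Cacna1a, and that of the second between genes beyond the 3′ end of Lsamp. The centres of the others lie in introns of the named gene, by curated transcripts. The Shank2 region lies within 1500 bp of the start of the RefSeq gene body at 143978077, which is not a curated start site. Only the centre base was placed, so a printed window can also hold bases of an exon. The Lsamp window held a TEAD match and the Nrxn2 window an E-box match, and these letters were not found in the other 4 windows. In the 376 windows of member loci RE1 was found in 1, an intronic region of Syt2 at chr1:134664944-134665287 with 4 positive fragments and 0 negative ones, named here after its values were seen. In the 27 member windows with at least 20 fragments RE1 was found in 0. There the CTCF, ETS and TEAD letters were each found in 4, the E-box in 5, RUNX in 3, and AP-1 and GATA each in 2. In all 376 the CTCF motif was found in 11, RUNX in 25, AP-1 in 44, GATA in 62, the E-box in 66, TEAD in 75 and ETS in 85.

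The first question was how many cloned fragments these loci held. The median member locus had 4.89 different fragments per 100 kb, against 6.81 over all gene loci and 7.42 over protein-coding loci. The order was not stable. By replicate 1 alone the medians were 3.13 for members and 1.97 for all loci, by replicate 2 alone 1.82 and 2.45, and without flanks 3.38 and 0. The 79 other synapse genes had a median of 6.11, and 30 genes of blood and endothelium had a median of 56.9. The lists were not matched for length. The median locus was 350 kb for members, 209 kb for other synapse genes and 78.7 kb for blood and endothelial genes. The part of locus length in these medians was not tested. The members spread widely around their median. 7 of 35 (20.0%) had over 50 fragments per 100 kb, beside 17.2% of all gene loci, and 22 of 35 (62.9%) had under 10, beside 56.0% of all. The 7 dense loci held 59.5% of the fragments on 5.51% of the summed length. These values describe the list, with no test over it.

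The postsynaptic scaffolds and kinases had the highest densities. Dlg4, which encodes PSD-95, the main scaffold of excitatory synapses, had 145 different fragments, or 185 per 100 kb. Shank3, a scaffold that links receptors to actin, had 116 (98.9 per 100 kb). The alpha and beta subunits of calcium/calmodulin-dependent kinase II, encoded by Camk2a and Camk2b, had 90 (79.8 per 100 kb) and 123 (83.8 per 100 kb). Shank2 had 95 (19.1 per 100 kb). Dlg2, which encodes PSD-93 and spans a locus of 2023 kb, had 53 (2.62 per 100 kb). The 6 genes of this role had a median of 81.8 per 100 kb. The member's own start site was the nearest for 140 fragments at Dlg4 and 100 at Shank3. It was the nearest for 34 at Camk2a, 29 at Shank2, 10 at Dlg2 and 9 at Camk2b, where 114 were nearest to Ykt6.

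Among the 4 voltage-gated channels, Cacna1a, the pore of the P/Q-type calcium channel that triggers release, had 387 different fragments, more than any other member, or 110 per 100 kb. Of these, 287 were nearest to the start site of its downstream neighbour Ier2, an immediate early gene, and 98 to its own. Kcnq3, a subunit of the M-type potassium channel, had 15, and the sodium channel genes Scn1a and Scn2a had 4 and 2. All fragments of Scn1a and Scn2a came from replicate 2.

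The 8 adhesion genes had a median of 4.00 per 100 kb and ran from 91.2 to 1.09. Nlgn2, the neuroligin of inhibitory synapses, had 59 fragments (91.2 per 100 kb), but 0 of them lay in its own gene body and 59 lay in other coding genes of the locus, which holds 8. Nrxn2, a presynaptic neurexin, had 114 (69.3 per 100 kb), of which 69 were nearest to the start site of Slc22a12 and 44 to that of Nrxn2. Lsamp and Ntm, surface proteins of the same family with a lipid anchor, had 110 (4.89 per 100 kb) and 37 (3.63). Nlgn1, the neuroligin of excitatory synapses, had 42 (4.37), Cadm2 had 25 (2.46), Nrxn3 had 24 (1.44) and Cntnap2, a neurexin-like protein on a locus of 2291 kb, had 25 (1.09).

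The 7 glutamate receptor genes had a median of 5.23 per 100 kb. Grin1, the subunit all NMDA receptors share, had 31 fragments (39.7 per 100 kb), and 13 of these lay in other coding genes. The NMDA receptor subunits Grin2a and Grin2b had 25 and 27. Of the AMPA receptor subunits, Gria2 had 32, in 1 region of an intron 2125 bp from its start site, while Gria1 had 5 (1.36 per 100 kb) and Gria4 had 2 (0.467 per 100 kb). Grik2, a kainate receptor subunit, had 21.

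The 10 genes of presynaptic release had a median of 4.53 per 100 kb. Syt2, a calcium sensor of fast release, had 44 fragments (28.1 per 100 kb) and Stx1a, the syntaxin of the fusion complex, had 16 (20.6). Syt13 had 12, the synapsins Syn1 and Syn2 had 7 and 12, the active zone organisers Rims1 and Rims2 had 8 and 16, Syt1 had 11 and Snap25, the partner of syntaxin, had 3. Syt4 had 0 fragments in all 40 libraries on 59.6 kb, which allows up to 5.03 per 100 kb by counting error alone.

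Loci over 1000 kb numbered 6 among the members, with a median of 2.54 per 100 kb, and 69 among all gene loci, with a median of 2.53. The 16 member loci under 200 kb had a median of 24.4, against 6.90 for all gene loci of that length. Many fragments lay nearer to a neighbour than to the member. Of the 1738 fragments, 856 (49.3%) had a member's start site as the nearest one, 448 (25.8%) lay in a flank, and 102 lay in another coding gene. By the annotation 70.9% had their centre in an intron and 9.26% in a coding exon.

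**Figure D1:**
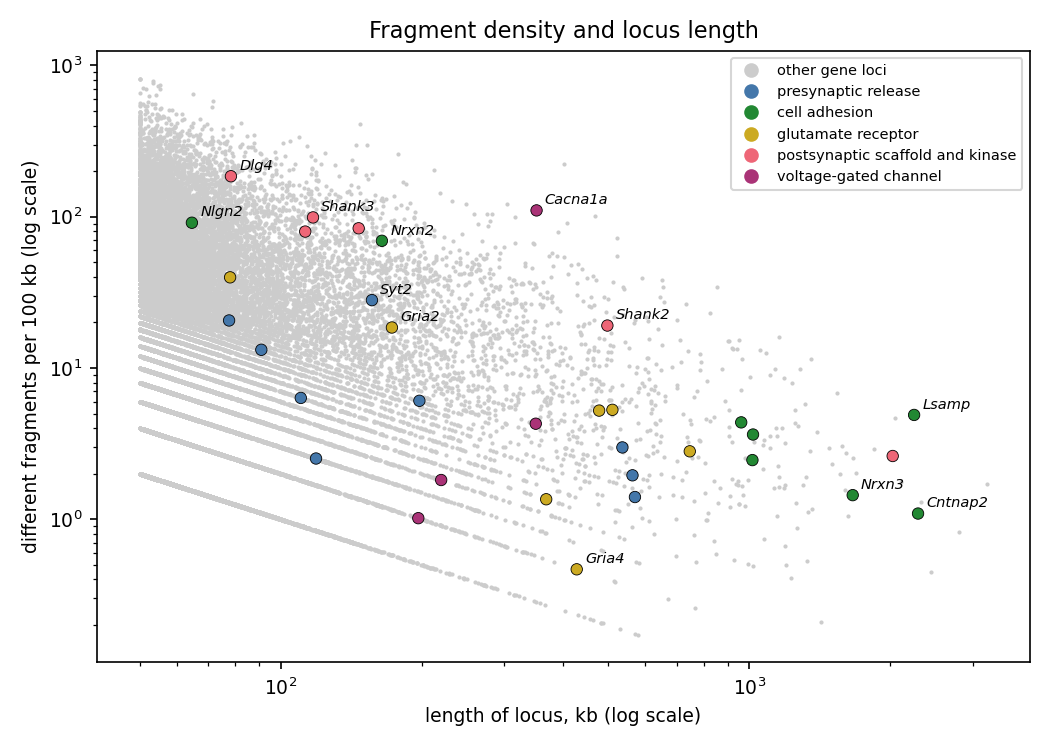
Different fragments per 100 kb of locus against the length of the locus, both on log scales, for gene loci with at least 1 fragment (grey) and the member loci with a fragment (coloured by role). Cacna1a stands at 110 per 100 kb on 352 kb, and the 6 member loci over 1000 kb lie between 1.09 and 4.89 among other loci of their length.

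The members differed in which replicate gave their fragments. Counting every library, the 7 loci over 50 per 100 kb had 1200 fragments from replicate 1 and 144 from replicate 2, which is 10.7% from replicate 2. The 22 loci under 10 per 100 kb had 286 and 324, which is 53.1%. Cacna1a had 471 from replicate 1 and 39 from replicate 2, and Dlg4 had 156 and 24. Cntnap2 had 0 and 35, Nrxn3 had 1 and 32, and Nlgn1 had 12 and 41. Replicate 2 gave more fragments than replicate 1 at 12 of 35 member loci (34.3%) and at 30.3% of all gene loci, and among loci over 1000 kb at 3 of 6 and at 60.9%.

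No fragment of replicate 1 was found at 8 member loci, among them Cntnap2, Gria1 and Rims1. At Cntnap2 a count of 0 in replicate 1 allows up to 0.131 different fragments per 100 kb, beside 1.09 in replicate 2. The fragments of the replicates also differed in composition. In member loci the mean GC content was 58.8 ± 1.05% in replicate 1 libraries and 50.0 ± 4.19% in replicate 2 libraries (SD, n = 20 each), and over all fragments it was 55.9 ± 0.874% and 50.3 ± 0.614%. In loci under 10 per 100 kb the median length was 161 bp in replicate 1 and 317 bp in replicate 2. The part of GC content and length in the densities was not tested.

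**Figure D2:**
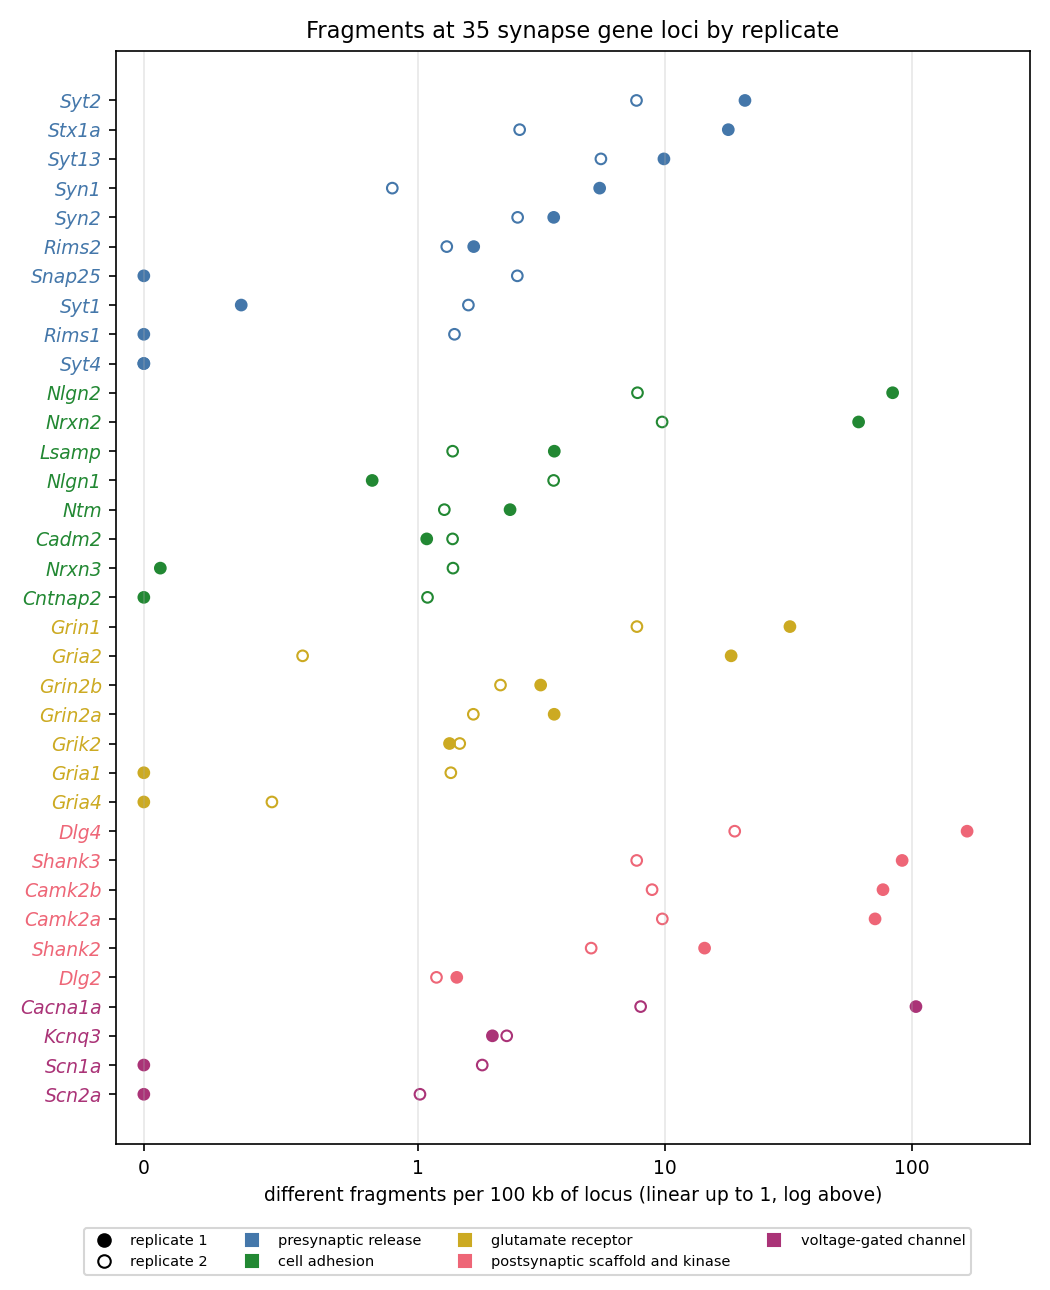
Different fragments per 100 kb of locus in replicate 1 (filled) and replicate 2 (open) for the 35 loci, ordered by role and density, on a scale that is linear up to 1 and logarithmic above. Filled points lie to the right at dense loci such as Dlg4 and Cacna1a, and at 0 for the 8 loci with no fragment in replicate 1, where Syt4 is at 0 in both.

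Most member regions were small. Of the 376 regions, 247 (65.7%) held a single fragment, beside 60.6% of all regions, and 212 of those single fragments came from replicate 2. Regions seen in replicate 2 alone made up 66.2% of member regions and 57.7% of all regions, and regions seen in both made up 6.91% and 9.28%. Of the replicate 2 fragments in member regions, 53.8% stood alone in their region, beside 52.9% over all fragments, while 2.61% of those of replicate 1 did. At the other end, 17 member regions with at least 20 different fragments held 815 different fragments.

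The question the gates address is whether a fragment raises the reporter above the level of the minimal promoter. In replicate 1 the member loci held 0.523%, 0.521%, 0.505%, 0.428% and 0.386% of the positive fragments at ES, HB, HE1, HE2 and HP, and 0.502%, 0.570%, 0.491%, 0.522% and 0.520% of the negative ones. In replicate 2 they held 0.588%, 0.590%, 0.621%, 0.576% and 0.326% of the positive fragments, and 0.320%, 0.556%, 0.757%, 0.440% and 0.522% of the negative ones. Positive shares lay above negative shares in 5 of the 10 sorts and below them in 5. The mean difference was -0.0136 ± 0.140 percentage points (SD, n = 10 sorts), within the spread between sorts. Without HE1 of replicate 1 it was -0.0167, and without fragments found on both sides -0.00208. It was -0.0483 ± 0.0675 in replicate 1 and 0.0211 ± 0.191 in replicate 2 (SD, n = 5 each). At HP the positive share was the lowest of the 5 stages in both replicates.

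By gate, replicate 1 libraries held 0.521 ± 0.0302% of Negative, 0.398 ± 0.0755% of Low, 0.491 ± 0.0805% of Medium and 0.477 ± 0.0719% of High fragments in member loci (SD, n = 5 each). In replicate 2 the values were 0.519 ± 0.161%, 0.562 ± 0.0231%, 0.557 ± 0.260% and 0.521 ± 0.230% (SD, n = 5 each). Low was the lowest gate in replicate 1 and the highest in replicate 2, and Medium was above High in both by less than 1 SD. The shallowest values rest on few fragments, as at HP Medium of replicate 2 with 0.123% (95% Wilson interval 0.0337% to 0.446%).

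**Figure D3:**
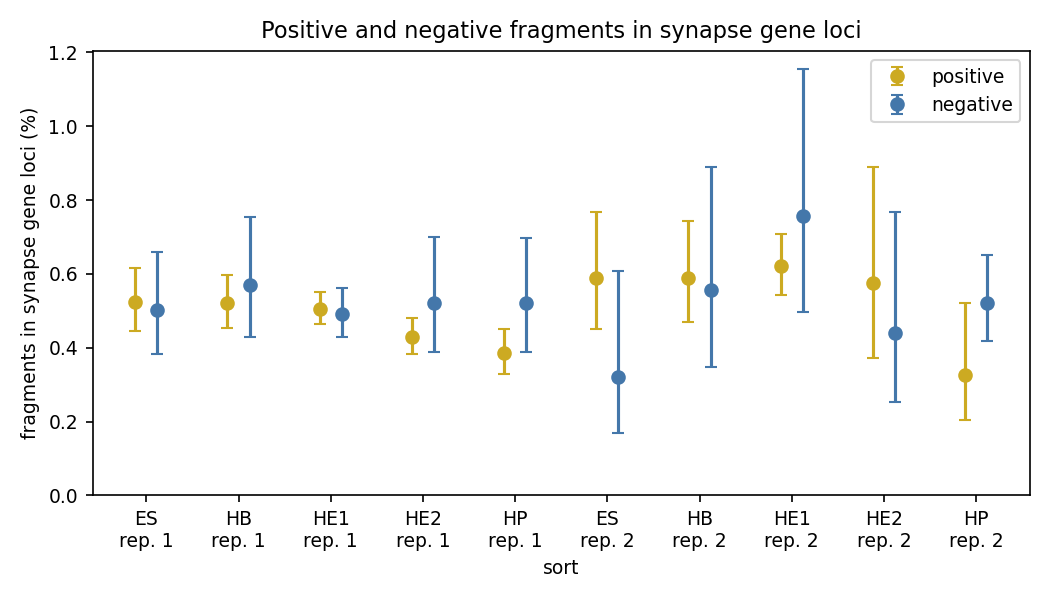
Percent of the positive (yellow) and negative (blue) fragments of each sort that lie in the 35 loci, with 95% Wilson intervals that cover counting error only. Positive points are above negative ones in 5 sorts and below in 5, and the mean difference is -0.0136 percentage points.

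Each locus was then asked whether its fragments were positive more or less often than those elsewhere in the same sorts. The Cochran-Mantel-Haenszel test over all gene loci holding 20 fragments or more, stratified by sort, called 13 of 13041 loci after Benjamini-Hochberg adjustment, 8 with fewer and 5 with more positive fragments. Of the 35 members 22 had enough fragments to be tested and 0 were called, where the share called over all loci was 0.0997%. 0 members had an unadjusted p under 0.05 in this test, and limma on the same sorts also called 0. The median ratio of observed to expected positive fragments was 0.997 over the 22 tested members, 1.02 over 43 tested other synapse genes, 0.963 over 23 tested blood and endothelial genes and 1.00 over all tested loci, and 0 loci of either comparison list were called. The ratio was above 1 at 9 members and below 1 at 13. Since loci of neighbouring genes overlap, fragments count for several loci.

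The best measured member was Cacna1a. Its positive fragments numbered 54, 48, 133, 77 and 48 in replicate 1, in the order of the stages from ES to HP, and 7, 7, 9, 1 and 0 in replicate 2. Its negative fragments numbered 19, 9, 43, 13 and 16, and 1, 2, 1, 1 and 8. In all, 384 positive fragments were found where 383.8 were expected, and the odds ratio of 1.00 had a 95% interval of 0.808 to 1.24. Without replicate 1 the ratio of observed to expected was 0.932, and the odds ratio lay outside that interval. The positive share was higher than the negative share in 4 sorts and lower in 6.

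The 5 lowest ratios were those of Syt2 (0.891), Rims2 (0.904), Dlg4 (0.941), Camk2a (0.952) and Shank2 (0.963). Syt2 had 1, 7, 16, 5 and 2 positive fragments from ES to HP in replicate 1 and 2, 4, 7, 1 and 2 in replicate 2. Its 47 positive fragments stood where 52.7 were expected, and the 95% interval of its odds ratio was 0.389 to 1.09. The positive share was below the negative one in 7 of 10 sorts. Dlg4 had 9, 18, 53, 30 and 3 positive fragments from ES to HP in replicate 1, beside 7, 9, 21, 4 and 0 negative ones. In replicate 2 it had 2, 2, 8, 3 and 1 positive and 0, 2, 3, 1 and 2 negative ones. Its odds ratio was 0.776 with a 95% interval of 0.555 to 1.09, and the sorts divided evenly, 5 higher and 5 lower.

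The 5 highest ratios were those of Cntnap2 (1.13), Grin2b (1.08), Nrxn3 (1.07), Gria2 (1.05) and Nlgn2 (1.03). Cntnap2 had 3, 5, 13, 0 and 4 positive fragments from ES to HP in replicate 2, beside 0, 0, 1, 1 and 5 negative ones, with 0 in replicate 1. Its odds ratio of 2.03 had a 95% interval of 0.726 to 5.68. Nrxn3 had 25 positive fragments and 4 negative ones, and its interval ran from 0.511 to 6.46. For every one of the 22 tested members the interval included 1.

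**Figure D4:**
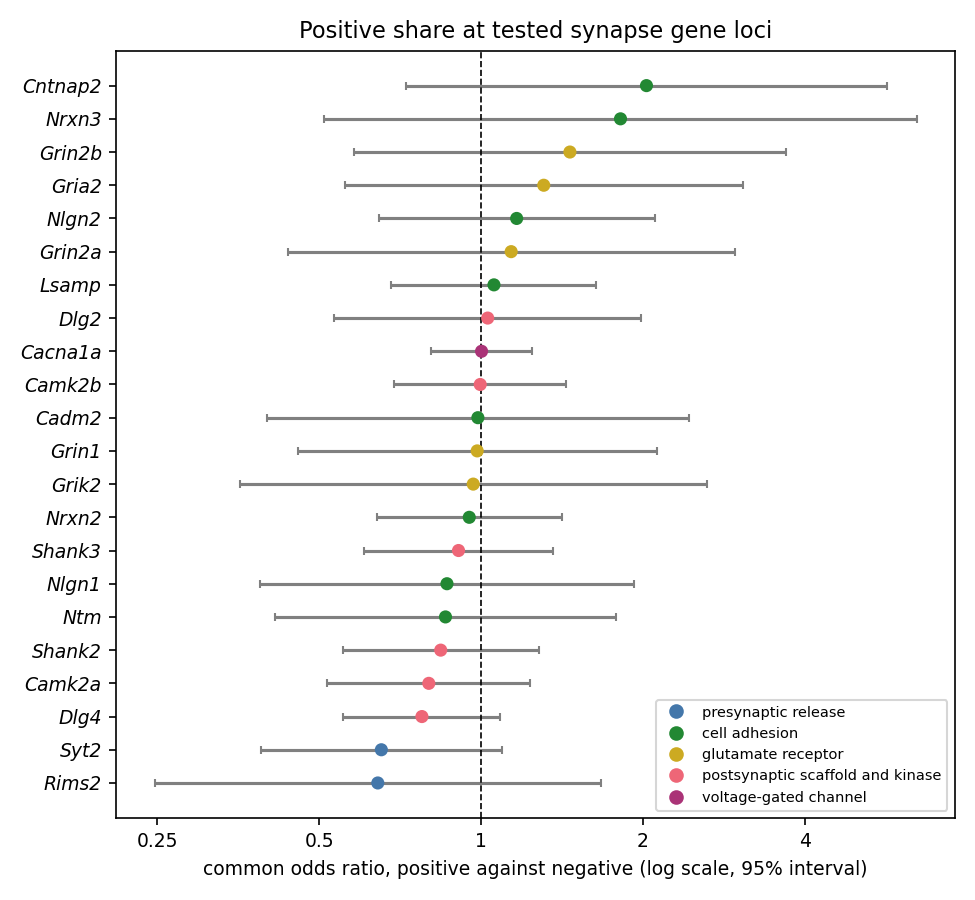
Common odds ratio of lying in the locus for positive against negative fragments, with its 95% interval, on a log scale, for the 22 tested members coloured by role. All intervals cross the dashed line at 1, the narrowest being that of Cacna1a (0.808 to 1.24).

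At the level of regions, the same test called 12 of 5742 regions, 11 with fewer positive fragments and 1 with more, which is 0.209%. 27 member regions were tested and 0 were called, and 0 had an unadjusted p under 0.05. Their ratios lay between 0.806 and 1.18, below 1 in 14 of 27. By the median over these 27, the 95% interval of the odds ratio ran from 0.466 to 1.89. Of the called regions 2 had the start site of a member as their nearest, and both lay outside the member loci. One at chr2:92809520-92809773, in an intron of another gene, lay 105 kb from the start site of Syt13. It held 12 different fragments, which over the sorts counted 6 times as positive and 18 times as negative. Another at chr9:30003602-30003861, between genes, was nearest to Ntm and 40.5 kb outside the gene. It held 14 different fragments, which counted 15 times as positive and 31 times as negative. Every fragment of both came from replicate 2.

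The 10 member regions with most different fragments lay at Cacna1a (4 regions), Dlg4, Shank3, Camk2b, Lsamp, Nlgn2 and Gria2. The largest, at chr8:84638776-84639903, was the exonic one of Cacna1a printed above, with 115 different fragments, 130 positive and 31 negative over the sorts. Its positive fragments numbered 17, 18, 41, 32 and 15 from ES to HP in replicate 1 and 1, 2, 4, 0 and 0 in replicate 2. The next was the larger printed region of Dlg4, with 107 different fragments, 93 positive and 32 negative. The region of Shank3, in an intron, had 89 different fragments, all from replicate 1, with 10, 29, 21 and 24 positive ones at HB, HE1, HE2 and HP and no fragment in any gate at ES. A pair of Cacna1a regions with 66 and 33 different fragments lay between genes, 5996 bp and 2689 bp from the start site of Ier2, and another, with 37, lay in an intron of Cacna1a. The Camk2b region, with 62, lay in an intron and was positive in 6 sorts.

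The Lsamp region printed above, with 60 different fragments, had 58 positive and 16 negative ones over the sorts. These were 60 of the 110 different fragments of a locus of 2247 kb. The Nlgn2 region, with 32, lay in an intron of Fgf11, a fibroblast growth factor homologue, 1690 bp from that gene's start site. The Gria2 region, with 32, had 9, 12, 7 and 4 positive fragments in replicate 1, from HB to HP, and no fragment in any gate at ES.

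Positive fragments in at least 6 sorts were found for 14 member regions (3.72%), beside 2.70% of all regions. They belonged to 9 members, 11 of the 14 had their centre in an intron, and their different fragments ranged from 11 to 115. The most sorts for a member region was 8, reached at Cacna1a, Lsamp, Dlg4, Shank2 and Camk2a. The Shank2 region had 4, 8, 12, 5 and 5 positive fragments from ES to HP in replicate 1 and 1, 1, 3, 0 and 0 in replicate 2. The Camk2a region, 1 of 3 tested at this gene, had 21 positive and 10 negative fragments. All 14 were positive at HE1 of replicate 1, the deepest sort, and 1 was positive at HE2 of replicate 2, the shallowest.

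**Figure D5:**
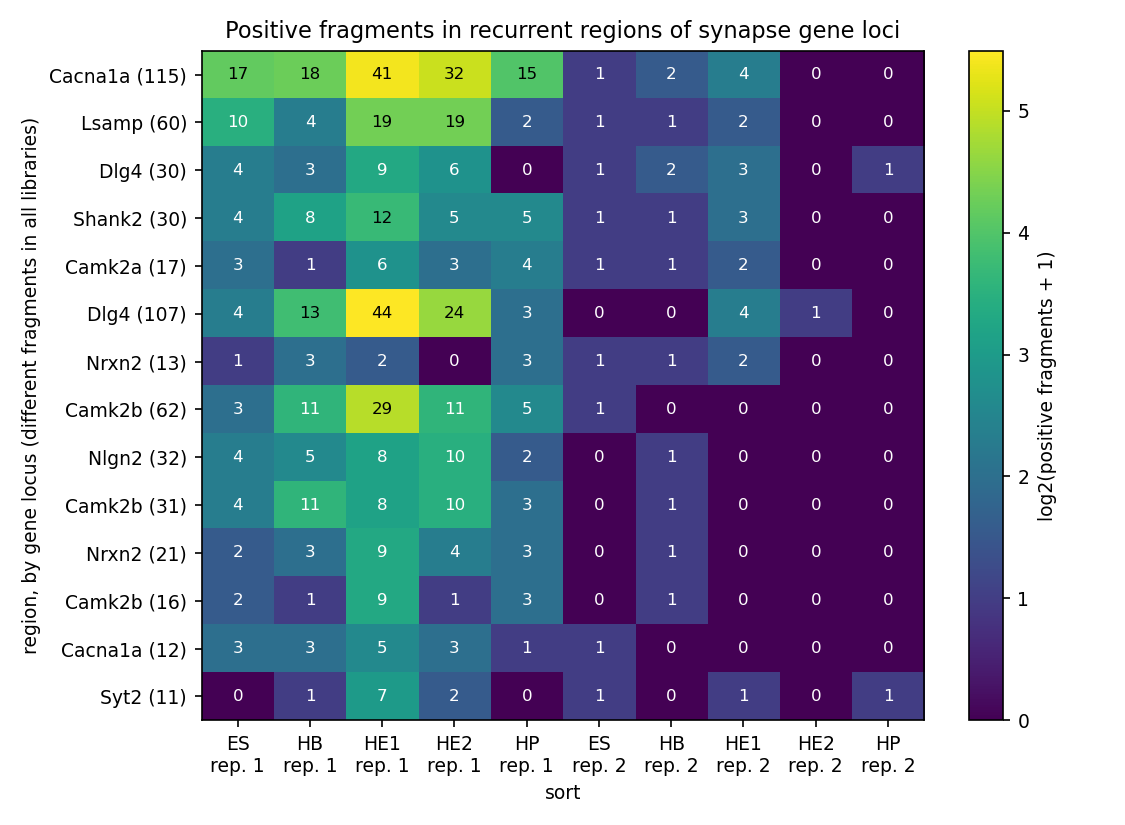
Positive fragments in each sort (columns) for the 14 member regions positive in at least 6 sorts (rows, named by locus with the number of different fragments), with colour as log2(positive fragments + 1). Counts reach 44, at a Dlg4 region at HE1 of replicate 1, and lie between 0 and 4 in the sorts of replicate 2.

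The largest region from replicate 2 alone was at Nlgn1. An intronic region of Nlgn1, at chr3:25844561-25844929, had 27 different fragments, all from replicate 2, with 31 positive and 1 negative over the sorts. Of the positive ones 26 were at HE1, 3 at ES and 2 at HB, so the region rests mostly on 1 sort. It was named after its values were seen. Its ratio was 1.08 and the 95% interval of its odds ratio was 0.486 to 29.6.

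Finally it was asked whether the part of a sort's positive fragments that lay at a locus changed between stages. Negative fragments did not enter this comparison, so it does not separate activity from how many fragments of the locus were recovered. limma called 0 of 10932 loci tested over the 5 stages (0%), and 0 of the 21 members with at least 20 positive fragments. Unadjusted p-values under 0.05 numbered 18 over all loci and 1 among the members. That member was Cadm2, a synaptic adhesion molecule (limma adjusted p = 1.00), named after its values were seen. Cadm2 had 0, 0.257, 0.490, 0.438 and 0 positive fragments per 10000 from ES to HP in replicate 1 and 0, 0.819, 2.87, 11.5 and 0 in replicate 2. It was 0 at ES and HP in both replicates, and the value at HE2 of replicate 2 rests on 4 fragments. Cacna1a had 19.5, 12.3, 13.0, 11.3 and 12.1 per 10000 in replicate 1 and 7.76, 5.73, 2.59, 2.88 and 0 in replicate 2, so that ES was highest in both and the replicates did not overlap. On fragments simulated at this depth with counting error alone, limma called 0% of loci raised 4-fold at HE1 and 24.0% of those raised 16-fold. A 4-fold difference at HE1 was therefore not detectable in this fit. Only HE1, the stage with most positive fragments in both replicates, was raised, so recovery at the other stages was not simulated. With the replicate as a block limma called 78.0% of the loci raised 16-fold at HE1, and on the data it again called 0 loci. Unadjusted p-values under 0.05 then numbered 442 over all loci and 3 among the members, which were Cadm2, Nlgn1 and Cacna1a.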

How the data were processed

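Libraries were assigned to stage, gate and replicate from their titles. Tools are as in the submitters' processing notes and the study's methods. After trimming by Trim Galore the authors mapped the pairs to the mm10 genome (Bowtie2), kept proper pairs of high mapping quality with SAMtools, and reduced repeated fragments to 1. Later filters in the methods took out fragments seen in DNA that had not been transfected, kept open sites (bedtools) and split promoter from distal fragments (HOMER). Which of these filters the deposited lists had passed is not stated, and the versions used on these libraries are not given in the sources used here. The deposited values are start and end positions in base pairs of unique fragments (66 to 599 bp), 1 list per library, with no read count, so depth is the number of fragments. Without molecular identifiers, the 95% intervals, and the limits set at 3 counts where 0 were found, reflect the error of counting alone. The Cochran-Mantel-Haenszel p-values likewise cover only the counting error of fragments, not the spread between samples. They also take the counts as independent, although the same fragment could count on both sides of a sort and again at other stages. The p-values of limma measure the spread between these samples. No source used here says whether the replicates came from separate cultures or transfections, so that spread may be technical.

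Genes, exons and start sites came from RefSeq on GRCm38, the exons and start sites from curated transcripts only. A region was placed in a locus, and in an exon, in an intron or between genes, by its own centre base. A fragment in any of the Low, Medium and High lists counted once as positive in that sort. Loci and regions with at least 20 fragments over the libraries were tested after Cochran, Mantel and Haenszel, continuity-corrected, over 10 sorts, with Benjamini-Hochberg adjustment over all loci or regions. The interval of the odds ratio follows Robins, Breslow and Greenland. Stages were compared with limma 3.58.1 on log2(positive fragments at the locus per 10000 positive fragments of the sort + 1). Medians and counts describe the lists, with no test over a list. The members and lists were chosen with earlier results of these data known. The 10 densest and 5 sparsest members, the 5 highest and 5 lowest ratios, the 10 regions with most fragments and regions positive in at least 6 sorts are named.

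The replicate numbers were taken to pair the samples from the data, since the differences between replicates per locus correlated between stages in all 10 pairs of stages (r from 0.302 to 0.465). The test per locus was run on simulated fragments with 200 of 13041 loci changed. These were drawn independently, with none shared between sides or stages. It called 86.0% of loci with odds lowered to 0.25 and 26.0% of those lowered to 0.5. Of loci with odds raised to 2 it called 8.00%, of those raised to 4 it called 22.0%, and it called 1 of 12841 unchanged loci.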

Additional observations from a re-analysis of the deposited data

Results flagged for a closer look

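The share of positive minus negative fragments in the member loci was above 0 at ES in both replicates (0.0208 and 0.268 percentage points) and below 0 at HP in both (-0.135 and -0.195). The means of these stages differ by 0.309 percentage points. ES and HP were singled out because every sample of one stage lay on one side of 0 and every sample of the other on the opposite side. The difference was not tested, and it was picked from 10 pairs of stages. At ES of replicate 2 the negative share rests on 9 fragments, and at HP of replicate 2 the positive share rests on 17.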

How the results depend on the processing

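The counts of 0 member loci called (24 settings), 0 member regions called (21) and 0 members called between stages (16) were found in every setting run. The mean difference between positive and negative shares ran from -0.0733 with a flank of 50 kb to 0.0211 without replicate 1. Leaving out replicates or sorts gave -0.0483 to 0.0211. All means stayed within the spread between sorts, which is the SD of single sorts (0.140) and not the error of a mean. With the flank of 50 kb the positive share was above the negative one in 2 of 10 sorts, beside 5 of 10 in the main setting. Of 481 values for single members recomputed, 472 had an odds ratio inside the 95% interval first found for that member and 9 had one outside it. Without replicate 1 these were Cacna1a (ratio 0.932), Camk2a, Gria2, Grin2a, Nlgn2 and Nrxn2. The others were Nrxn3 without replicate 2, Cadm2 with Medium and High only, and Nlgn1 with High only. Numbers called over all loci and regions (13 and 12) depended on the setting. They were 3 and 5 with at least 50 fragments, 0 and 0 with near-identical fragments collapsed (262 and 103 at an unadjusted p under 0.05), 23 and 26 without fragments in both gates, 4 and 3 with Medium and High only, 3 and 2 with High only, and 0 and 0 by limma (1240 and 368 at an unadjusted p under 0.05). With no replicate block, replicates pooled, they were 24 and 30. Loci numbered 8 with no flank and 23 with 50 kb. Leaving out replicates or sorts gave 3 to 18 loci and 5 to 19 regions, with 3 and 5 without replicate 2, 5 and 7 without HB of replicate 2, 6 and 5 without HE1 of replicate 2, 7 regions without ES of replicate 2 and 19 without HP of replicate 2. Between stages the replicate block also called 0 loci (442 at an unadjusted p under 0.05). The median member density of 4.89 per 100 kb (all loci 6.81) was 3.38 with no flank (all loci 0), 3.37 with 10 kb (4.42), 2.81 by nearest start site, and 1.82 (2.45) to 3.13 (1.97) with 1 replicate left out, so members lay above all loci with no flank and without replicate 2. The cause of these shifts was not tested. At this depth few loci with odds changed by 2-fold would be called.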

Other observations

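Identical fragments recurred between libraries at the member loci about as often as elsewhere. In replicate 1, 290 of 1361 different fragments (21.3%) were found in at least 2 libraries, beside 19.7% over all fragments. In replicate 2 these were 60 of 396 (15.2%), beside 13.0%. Fragments with the same ends in both replicates numbered 19 of 1738 (1.09%), beside 0.957% over all. 1 member fragment was listed in 12 libraries of replicate 2.

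The member loci held 0 fragments with the centre within 1500 bp of a curated start site, while 1.83% of all fragments lay that close. This count leaves out starts of RefSeq gene bodies that are not curated start sites. The printed Shank2 region, chr7:143978418-143979241 with 30 different fragments, lies within 1500 bp of such a start, that of Shank2 at 143978077. Member fragments near a start of this kind are therefore not excluded.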
